A study of Mus musculus with 30 samples.

Results

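Described here are promoter intervals called as peaks of the POU6F1-mCherry precipitation in mouse embryonic stem cells (mESCs) against a non-specific IgG control. They were not called against cells that made mCherry alone. A peak against IgG alone does not establish binding by the fusion. An interval is the stretch shared by a peak of replicate 1 and a peak of replicate 2 against IgG, with an overlap of at least 1 bp. An IgG-only interval touched no peak of either replicate against mCherry, and its nearest edge lay within 1 kb of an annotated transcription start site (TSS) of a protein-coding gene. Of 17994 consensus intervals, 12706 (70.61%) met the distance rule, and 2172 of these (17.09%) were IgG-only. Another 7501 promoter intervals touched an mCherry-control peak of 1 replicate and 3033 touched peaks of both. The members were therefore chosen by the peak calls themselves, and every value taken from the peak lists below is a description without a test.

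The study asked which transcripts the nuclease DIS3 removes before implantation and which promoters POU6F1, the product of such a transcript, occupies. The mESCs came from Dis3 flox/flox blastocysts, so the cells of every chromatin sample carried intact floxed Dis3 alleles. They were transfected with a plasmid in which the CAG promoter drove the fusion (pCAG-pou6f1-mCherry) or mCherry alone (pCAG-mCherry), and chromatin was precipitated with an anti-mCherry antibody 48 h later. The labels give 2 anti-mCherry replicates of the fusion, with 1 IgG precipitation and 1 anti-mCherry precipitation of mCherry cells as controls, so both replicates share their controls. The RNA data are read counts per gene in 23 embryos, sequenced individually after heterozygous Dis3 mice were mated, of which 9 were WT (6 at E2.5 and 3 at E2.75), 7 were Het (2 and 5) and 7 were Null (4 and 3). The Null allele lacks exons 3 to 5, removed by Cas9. The mESCs overexpressed the fusion under a foreign promoter, and no RNA of these cells and no read depth of the chromatin samples was analysed here.

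POU factors bind DNA through a POU-specific domain joined to a homeodomain. POU5F1 (OCT4), the best known member, binds the octamer and related sites and maintains pluripotency, whereas POU6F1 is a more divergent member studied mainly in the nervous system. In chromatin immunoprecipitation, open promoters are recovered to some degree by any antibody or tag. An IgG control measures the background of the beads and of an unrelated antibody, and a tag-only control measures in addition what the tag and its antibody recover.

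Sequences are shown first for 3 of the strongest IgG-only intervals, so that the kind of DNA the rule selected can be seen. They were ranked by the lower of their 2 fold enrichments and lay by Rara, the retinoic acid receptor alpha gene, by Gga3, a clathrin adaptor gene of the trans-Golgi network, and by Klhl26. All sequences were read from RefSeq's copy of GRCm38.p6, run 5′ to 3′ on the strand of the gene, and cover the longest part of the interval outside annotated exons. Capitals mark a searched motif on either strand.
Rara (chr11:98938197-98938327, plus strand): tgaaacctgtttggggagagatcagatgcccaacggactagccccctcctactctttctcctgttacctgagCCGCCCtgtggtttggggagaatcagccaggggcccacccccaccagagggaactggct
Gga3 (chr11:115603449-115603551, minus strand): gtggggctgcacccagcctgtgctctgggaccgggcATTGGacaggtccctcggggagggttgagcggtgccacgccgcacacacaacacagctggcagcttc
Klhl26 (chr8:70477366-70477489, minus strand): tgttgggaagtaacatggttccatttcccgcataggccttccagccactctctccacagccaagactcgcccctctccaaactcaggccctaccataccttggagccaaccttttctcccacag
The Rara stretch holds a GC box on its reverse strand, the Gga3 stretch a CCAAT box on its reverse strand and the Klhl26 stretch none of the motifs searched.

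The next 6 sequences are of IgG-only intervals by 6 of the 16 genes with the largest rises and falls in RNA between Null and Het embryos, picked after their values were seen. The first 3 lie by genes that were higher in Null embryos and the last 3 by genes that were lower.
Mpig6b (chr17:35066185-35066274, minus strand): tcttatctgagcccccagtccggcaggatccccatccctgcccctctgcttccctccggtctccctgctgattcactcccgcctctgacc
Adgrb1 (chr15:74517560-74517751, plus strand): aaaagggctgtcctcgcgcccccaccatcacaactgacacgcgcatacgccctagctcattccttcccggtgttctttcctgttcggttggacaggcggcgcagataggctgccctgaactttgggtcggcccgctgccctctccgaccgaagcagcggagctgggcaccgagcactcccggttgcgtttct
Fbxo36 (chr1:84840055-84840233, plus strand): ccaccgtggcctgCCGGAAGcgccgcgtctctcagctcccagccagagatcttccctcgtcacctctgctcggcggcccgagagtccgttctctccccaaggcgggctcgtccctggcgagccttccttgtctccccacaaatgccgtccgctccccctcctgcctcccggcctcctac
Prss8 (chr7:127929575-127929640, minus strand): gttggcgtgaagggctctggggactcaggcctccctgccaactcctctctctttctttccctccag
Slc16a3 (chr11:120955038-120955193, plus strand): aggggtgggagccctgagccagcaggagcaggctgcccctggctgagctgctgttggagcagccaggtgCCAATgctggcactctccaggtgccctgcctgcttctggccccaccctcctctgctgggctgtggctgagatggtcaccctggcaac
Hdac5 (chr11:102199494-102199635, minus strand): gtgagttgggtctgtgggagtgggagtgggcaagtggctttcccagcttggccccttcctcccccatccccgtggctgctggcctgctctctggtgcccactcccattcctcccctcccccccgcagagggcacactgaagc
The Fbxo36 stretch holds an ETS core and the Slc16a3 stretch a CCAAT box, and the other 4 hold no searched motif.

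The last 5 sequences were chosen, after their motifs were seen, because they hold an octamer or the TAATGA core, the letters nearest to known POU sites. They lie by Elf3, an epithelial ETS factor, Mylk, the myosin light chain kinase, Sfrp2, a secreted Wnt antagonist, Pcdh8, a protocadherin, and Tfeb, a regulator of lysosomal genes.
Elf3 (chr1:135258570-135258869, minus strand): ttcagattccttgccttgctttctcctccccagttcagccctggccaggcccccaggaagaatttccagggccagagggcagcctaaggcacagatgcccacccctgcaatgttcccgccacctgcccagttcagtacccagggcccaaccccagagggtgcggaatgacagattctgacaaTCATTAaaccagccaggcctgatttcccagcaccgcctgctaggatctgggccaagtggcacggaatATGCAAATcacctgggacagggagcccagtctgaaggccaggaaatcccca
Mylk (chr16:34745078-34745209, plus strand): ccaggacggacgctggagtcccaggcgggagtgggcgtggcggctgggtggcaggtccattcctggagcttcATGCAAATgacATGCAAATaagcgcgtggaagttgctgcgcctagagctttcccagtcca
Sfrp2 (chr3:83766129-83766320, plus strand): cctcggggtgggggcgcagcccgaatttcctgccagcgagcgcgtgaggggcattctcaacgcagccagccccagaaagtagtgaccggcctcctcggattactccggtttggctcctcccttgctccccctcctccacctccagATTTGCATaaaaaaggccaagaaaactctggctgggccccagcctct
Pcdh8 (chr14:79771313-79771370, minus strand): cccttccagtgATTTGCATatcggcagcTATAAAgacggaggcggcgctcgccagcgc
Tfeb (chr17:47769097-47769237, plus strand): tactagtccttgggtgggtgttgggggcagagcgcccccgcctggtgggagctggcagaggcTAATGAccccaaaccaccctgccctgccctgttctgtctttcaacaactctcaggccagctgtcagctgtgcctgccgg
The Mylk stretch holds 2 octamers and the Pcdh8 stretch an octamer beside a TATA box. These 5 are exceptions among the 2172 intervals, as the motif counts show.

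Most IgG-only intervals were weak peaks in replicate 2. Fold enrichment over IgG, the height of a whole peak at its summit over the control, had a median of 6.74 in replicate 1 and 4.53 in replicate 2. Promoter intervals supported in both replicates had medians of 24.2 and 9.31, and those supported in 1 replicate 13.4 and 5.25. In replicate 2, 1560 of the 2172 (71.82%) had a fold under 5, against 3.264% of the intervals supported in both. The median −log10 q was 7.47 and 3.53. The 2 replicates ranked the IgG-only intervals differently, with a Spearman correlation of 0.041 across intervals, whereas that of intervals supported in both was 0.70. These correlations describe intervals of the same libraries and carry no test.

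The IgG-only share fell along the strength of the replicate 2 peak. Promoter intervals were ranked by replicate 2 fold and divided into 10 equal bins. In the weakest bin 33.28% were IgG-only, in bin 5 22.91%, and in the strongest 0.4721%, which is 6 of 1271 intervals. The IgG list of replicate 1 held 82694 peaks and its mCherry list 31348. The lists of replicate 2 held 24524 and 3630 peaks, so a missing mCherry-control peak was far more common in replicate 2. How much of the IgG-only class follows from the depth of each library was not tested.

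**Figure D1:**
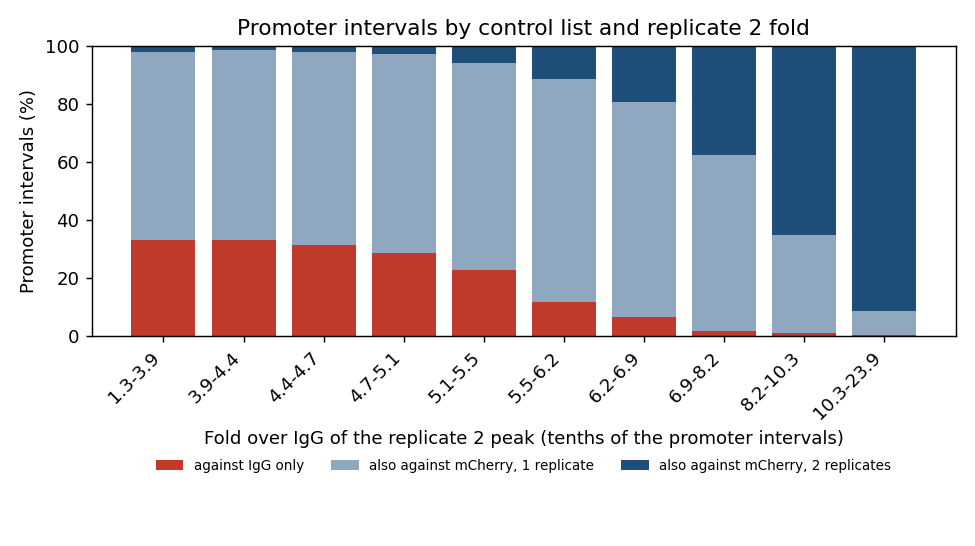
Share of promoter intervals in each class (y, percent) by bin of the replicate 2 fold enrichment over IgG (x, weakest to strongest, 1270 or 1271 intervals a bin). The IgG-only share goes from 33.28% in the weakest bin to 0.4721% in the strongest, where 91.35% were supported in both replicates.

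The strongest members were uneven. The Rara interval (chr11:98938197-98938366) had folds of 9.34 and 11.1, with the nearest mCherry-control peak 202 bp away. A supported Rara interval over the TSS (chr11:98937318-98938124) had the same replicate 2 fold of 11.1 and −log10 q of 24.68. That fold therefore belongs to a peak that both share. The Gtf3c5 interval, by the gene of a TFIIIC subunit (chr2:28582892-28583259), had 9.57 and 8.998, covered the TSS and lay 2014 bp from such a peak. The Cd9 interval, by a tetraspanin gene active in the early embryo (chr6:125494719-125494966), had 8.49 and 10.7, covered the TSS and lay 3221 bp away. Gtf3c5 and Cd9 had no supported promoter interval at all, whereas the other 6 of the top 8 lay by genes that also had one.

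Several of these belonged to the edge of a larger supported peak. The Klhl26 interval (chr8:70477366-70477489) had folds of 30.6 and 7.82, but its replicate 1 peak also held a supported interval over the TSS with the same fold of 30.6. Its replicate 2 fold of 7.82 was also that of another supported interval of the gene. The Pcnx3 interval (chr19:5688147-5688459) had 24.7 and 8.77 and lay 5 bp from an mCherry-control peak. A supported interval of Pcnx3 had the same replicate 1 fold of 24.7. The Pik3r2 interval, by a regulatory subunit gene of PI3 kinase, was 10 bp wide with folds of 11.1 and 7.90. Each of these folds was also that of a supported interval of the gene. The remaining 2 were Gga3 (10.1 and 8.95, 66 bp from an mCherry-control peak) and Vasp, an actin regulator gene (8.26 and 7.82, 1729 bp away). Supported intervals of Gga3 had the same replicate 1 fold of 10.1.

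In all, 389 members (17.91%) shared their replicate 1 peak with a supported interval, and for these the fold belongs to the whole peak. Members that shared a replicate 2 peak with a supported interval were not counted. The 2172 members came from 2112 peaks of replicate 1 and 2092 of replicate 2, and 229 were under 50 bp wide. The weakest members by the lower fold were at Sfi1, a centrosomal gene (2.25 in replicate 2), Ccr7, a chemokine receptor gene (2.85), and Fasn, the fatty acid synthase gene (2.87).

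At the limit of the distance rule, members and their neighbours outside it had folds of the same range. Just inside 1 kb lay intervals of Sgsh and Cd2bp2, both 1000 bp from a TSS, with replicate 2 folds of 5.51 and 4.50. Just outside lay intervals of Dazap1 at 1002 bp, Cacnb1 at 1003 bp and 1700018B08Rik at 1004 bp, with 5.30, 3.76 and 4.35.

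IgG-only intervals lay beside start sites more often than over them. Only 496 of 2172 (22.84%) covered an annotated TSS, against 64.83% of intervals supported in 1 replicate and 91.13% of those supported in both. Their median widths were 161, 254 and 443 bp in the same order, and the part of width in these shares was not tested. Another 1126 (51.84%) lay downstream of the nearest TSS and 550 (25.32%) upstream, with a median edge distance of 176.5 bp. By midpoint, 49.77% lay in exons, 38.31% in introns and 11.92% outside genes. For intervals supported in both replicates these shares were 43.42%, 14.97% and 41.61%. Every annotated TSS of a gene counted, so an interval in an intron can sit at the start of a shorter transcript. The summits of the replicates were a median of 168 bp apart, and 31 bp apart for intervals supported in both.

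**Figure D2:**
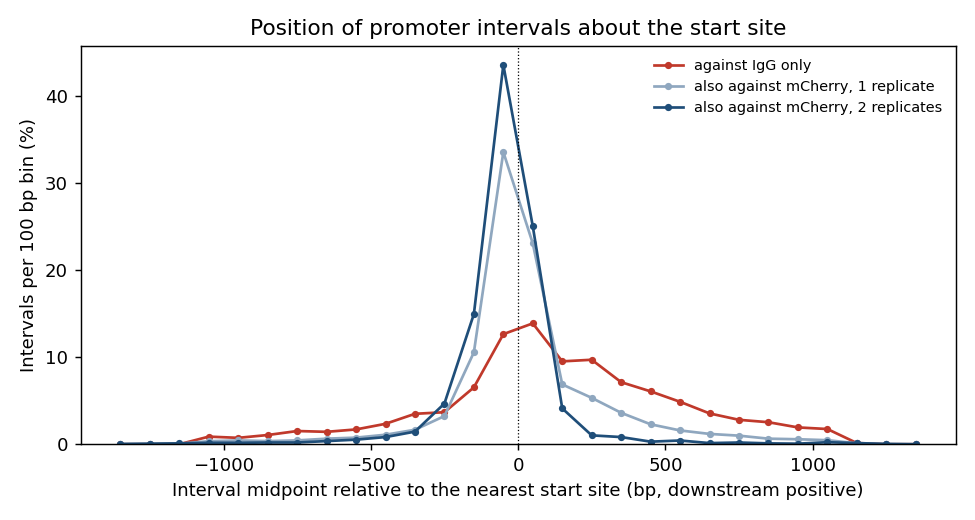
Position of interval midpoints relative to the nearest TSS (x, bp, downstream positive) as a share of each class (y, percent per 100 bp bin). The tallest bin of the IgG-only intervals, centred 50 bp downstream, holds 13.9% of them, and that of the intervals supported in both replicates, centred 50 bp upstream, holds 43.62%.

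Many members lay close to an mCherry-control peak without touching it. Of the 2172, 360 lay within 100 bp of such a peak, 1044 (48.07%) within 500 bp and 1745 (80.34%) within 10 kb, leaving 427 (19.66%) farther off. The median distance was 565.5 bp, and the nearest peak was one of the replicate 1 list for 2155 members. Against the shorter replicate 2 list alone, 98 lay within 500 bp. The 1044 near intervals had a median replicate 1 fold of 8.26 and the 1128 others 5.83, while the replicate 2 medians were 4.56 and 4.385. The near intervals had summits 327 bp apart between replicates and the far ones 96.5 bp. Thus the far intervals, though weaker in replicate 1, had summits closer together, and 27.93% of them covered a TSS against 17.34% of the near ones.

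**Figure D3:**
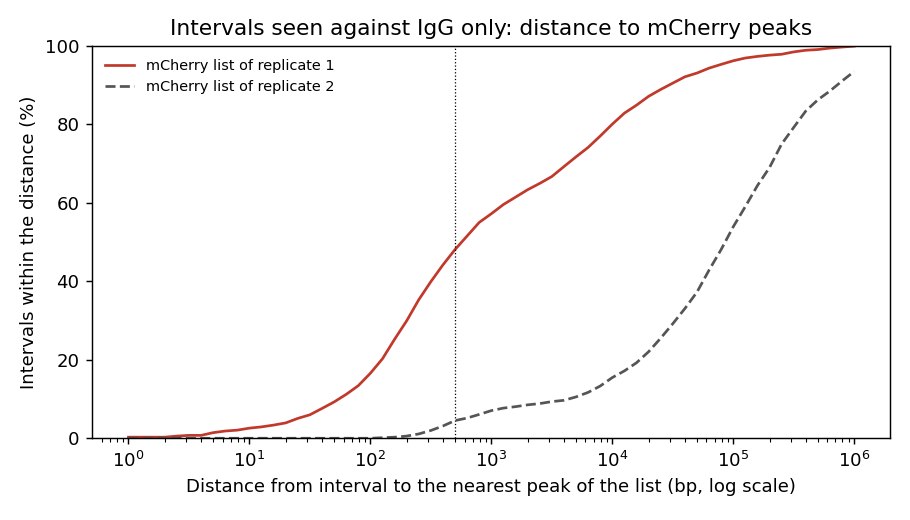
Share of the 2172 IgG-only intervals (y, percent, cumulative) with an mCherry-control peak within a given distance (x, bp, log scale), for the peak lists of replicates 1 and 2. Within 500 bp the share against replicate 2 alone is 4.512%, and against either list it is 48.07%.

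Every chromosome from 1 to 19 and X held IgG-only intervals. The IgG-only share of promoter intervals ranged from 14.03% on chromosome 13 to 20.96% on chromosome 12, and chromosome 11 held the most members (264). Outside promoters, IgG-only intervals were the larger part, with 2862 of 5288 (54.12%).

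The DNA of IgG-only intervals was GC-rich but poorer in CpG than that of supported intervals. Median GC content was 63.59% in the intervals, against 67.06% in those supported in 1 replicate and 66.45% in those supported in both. The ratio of observed to expected CpG was 0.629, 0.817 and 0.828. Far intervals had the lowest values, at 62.5% GC and a ratio of 0.548, and near intervals had 65.28% and 0.7045. In 200 bp about the 5′ ends of all 21938 protein-coding genes the median GC content was 58.5% and the ratio 0.601.

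Motifs of housekeeping promoters were rarer in IgG-only intervals than in supported ones. Exact words were searched on both strands in 200 bp about each midpoint, and no word contains another. The GC box (GGGCGG), bound by SP and KLF factors, was held by 38.12% of IgG-only intervals, 63.26% of those supported in 1 replicate, 77.55% of those supported in both and 39.94% of all gene starts. The CCAAT box (CCAAT), bound by NF-Y, was held by 15.65%, 22.81%, 29.64% and 28.09% in the same order. The ETS core (CCGGAAG) was held by 4.88%, 12.12%, 15.56% and 9.582%, and the NRF1 word (GCGCATG) by 1.565%, 5.199%, 10.52% and 3.638%. Each of these 4 shares was below that of all gene starts in the IgG-only intervals.

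The same order held for rarer words of promoters. The YY1 word (AAGATGGC) was held by 0.8748%, 2.986%, 3.989% and 2.776%, the cyclic AMP response element (TGACGTCA) by 0.2762%, 2.4%, 3.627% and 2.01%, and the TCTCGCGA element by 0.2762%, 1.32%, 2.11% and 1.13%. The E box (CACGTG) was held by 4.374%, 8.359%, 11.01% and 5.661%. The TATA box (TATAAA) was held by 1.243%, 1.466%, 1.517% and 8.073%, so its 3 interval classes lay close together and all below gene starts. The windows of IgG-only intervals are centred farther from start sites than those of supported ones, and the part of that distance in these shares was not tested.

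Words near to POU and homeobox sites were rare in every class. The octamer (ATGCAAAT) was held by 6 IgG-only windows (0.2762%), against 0.6799%, 0.7254% and 0.8798%. The homeobox core TAATTA was held by 9 and TAATGA by 30. At least 1 of the 3 was held by 44 windows (2.026%), by 2.28% and 2.539% of the supported classes and by 7.653% of all gene starts. A match is a run of letters and no evidence of a bound site, and the absence of these words says nothing about the factor.

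IgG-only intervals lay within 1 kb of 1976 genes, 9.007% of 21938 protein-coding genes. For 918 of these every promoter interval was IgG-only, and the other 1058 also had a supported interval. Another 5371 genes had a promoter supported in 1 replicate at most, 3081 had 1 supported in both, and 11510 had no interval. Of the members, 125 (5.755%) lay within 1 kb of 2 or more genes, against 14.57% of the intervals supported in both.

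Regulators of the early embryo were among the genes of both kinds. In a list of 22 pluripotency genes, 5 had an IgG-only interval, Klf4, Prdm14, Pou5f1, Sox2 and Fgf4. Pou5f1, the OCT4 gene, had 3 such intervals and no supported one. The first covered its TSS (chr17:35505885-35506040) with folds of 7.71 and 5.145, and the others lay downstream with 5.14 and 5.285 and with 4.53 and 5.285. Prdm14, a repressor gene of pluripotent and germ cells, also had IgG-only intervals alone, with folds of 5.95 and 5.73. The Sox2 interval (chr3:34649422-34649614) had 12.1 and 4.95, lay 128 bp from an mCherry-control peak and shared its replicate 1 peak with a supported interval. Nanog and Cdx2, the genes on which the study centred, had no promoter interval of either kind under this rule. The paper reports POU6F1 peaks against IgG at both genes, in promoters and within the genes. The absence here therefore holds only for this rule of shared intervals and distance.

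In 16 trophectoderm genes, 5 had an IgG-only interval, and for Gata2, Elf5, Ets2 and Tfap2a there was no supported one. The Ets2 intervals nevertheless lay only 12 and 86 bp from an mCherry-control peak, whereas the Elf5 interval lay 38308 bp away. Gata2, a GATA factor gene of the trophoblast, had folds of 8.27 and 5.20. Tfap2c, an AP-2 factor gene, had 7.19 and 5.02 beside a supported interval. Of 17 genes of primitive endoderm and FGF signalling, Fgfr1, Map2k2, Fgfr2 and Sox17 had one, and of 19 Hippo pathway genes, Tead1, Vgll4 and Amotl2. These shares of 31.25%, 23.53% and 15.79% stand beside 9.007% of all protein-coding genes, and the lists were chosen with earlier results of these data known. Of all protein-coding genes 52.47% had no promoter interval of any kind, against 5 of 16, 4 of 17 and 3 of 19 in these lists. The shares are therefore not on a like base.

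POU genes themselves were among the members. Of 15, the genes Pou3f3, Pou2f3, Pou5f1, Pou4f1 and Pou4f2 had an IgG-only interval, and only Pou3f3 had a supported interval as well. Pou3f3, a neural POU gene, had folds of 5.78 and 7.26. Pou6f1 had intervals supported in both replicates, 6 of them, with replicate 2 folds of 1.32 to 1.65 and midpoints in exons. The transfected plasmid encoded POU6F1, and its part in these exonic intervals was not tested. Another Pou6f1 interval (chr15:100600029-100600302), outside genes and 45 bp from a TSS, had folds of 10.91 and 4.369 and support in 1 replicate. Polycomb genes had 6 of 32 (Cbx2, Phc1, Aebp2, Bcor, Cbx8 and Pcgf5), and lysine demethylase and methyltransferase genes 5 of 33 (Kdm1a, Kmt5c, Kmt2d, Kmt2a and Setd1b), most beside a supported interval. The Kdm1a interval had folds of 27.4 and 5.02.

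Shares in the other lists ran from below to above the 9.007% of all protein-coding genes. There was 1 of 48 spliceosome genes, 1 of 30 cyclin and cyclin-dependent kinase genes, 1 of 31 genes of homologous recombination and the Fanconi pathway, and 3 of 43 DNA replication genes. Among RNA exosome genes and cofactors, 2 of 22 had an IgG-only interval, Zfc3h1 (11.8 and 5.02) and Exosc10, where it was 4 bp wide. The shares were 3 of 39 for proteasome subunits, 3 of 32 for aminoacyl-tRNA synthetases, 3 of 30 for Mediator subunits, 3 of 16 for autophagy genes, 4 of 20 for p53 targets (Eda2r, Perp, Cdkn1a and Phlda3) and 5 of 39 for homeobox cluster genes. In larger families they were 5 of 82 cytosolic and 9 of 78 mitochondrial ribosomal protein genes, 9 of 80 oxidative phosphorylation genes, 7 of 50 ubiquitin-specific protease genes, 3 of 55 translation initiation factor genes, 36 of 365 Zfp genes, 4 of 67 histone genes and 1 of 1092 olfactory receptor genes.

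Other genes that the study named fell mostly in the supported classes. Sox15, Cox6b2 and Uso1 had an interval supported in both replicates, and Dis3, Ovol2, Pigl, Efhd1, Wdr45, Gapdh, G3bp2, Sec23ip, Nes, Erbb2 and Nfyc had support in 1. Cacnb1 had an IgG-only interval beside supported ones, and Pax6, a neuroectoderm regulator, had an IgG-only interval alone, with folds of 6.50 and 4.25. Fbp1, Ninj2 and Mtap had none.

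In WT embryos, genes with IgG-only intervals alone were expressed at low levels. Their median over genes of the mean over 9 WT embryos was 0.167 CPM per kb of exon, against 1.75 for genes with a supported interval beside it, 2.94 and 5.25 for genes supported in 1 and both replicates, and 0.00719 for genes with no interval. Genes with IgG-only intervals alone thus lay above genes with no interval and below every other class. Of the 918 genes alone, 80.28% had a read in some WT embryo and 432 (47.06%) passed the filter on low counts, which a gene can also pass through its level in 1 genotype. The embryos are not the cells in which the peaks were called.

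**Figure D4:**
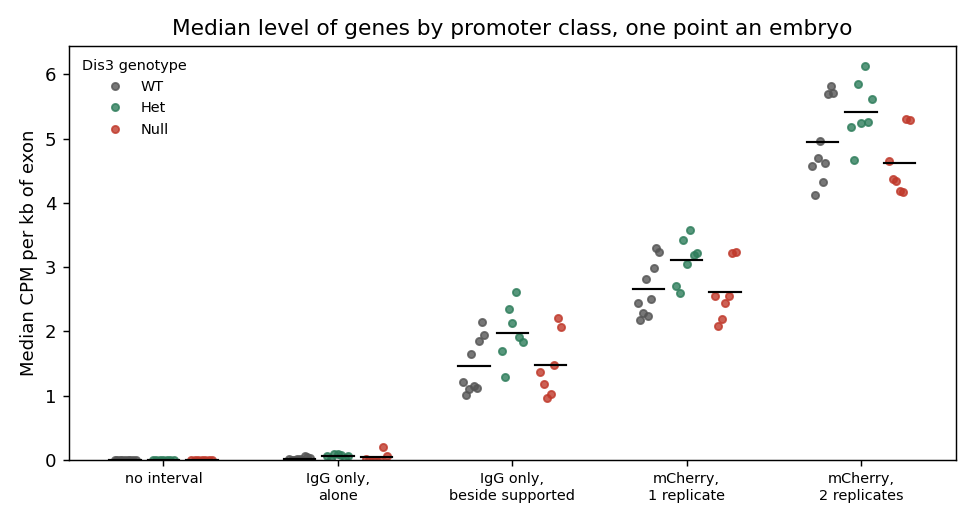
Median level of the genes of each class in each embryo (y, CPM per kb of exon, points) by genotype (x), with a bar at the mean over embryos. Genes with an interval supported in both replicates lie between 4.118 and 6.136 in all 23 embryos, and genes with IgG-only intervals alone stay at or below 0.1946.

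The embryos carried markers of their stage, and the libraries differed between genotypes in some respects. All 8 morula and early blastocyst markers had reads in each genotype, with summed levels of 1472 to 2758 CPM in Null, 1726 to 2892 in Het and 1098 to 3677 in WT. Of 6 cumulus and granulosa cell markers, 4 had reads in Null embryos, with a summed level of 0 to 18.9 CPM, against 0 to 2.71 in Het and 0 to 0.668 in WT. Ptprc, the leukocyte marker, reached 2.05 CPM in Null and was at 0 in all others, and fibroblast markers were at 0 in Null. The share of reads outside annotated exons was 32.3% to 43.9% in Null libraries and 20.99% to 33.4% in the others, and E2.75 Null replicates 1 and 2 were shallow, with 1914128 and 1690192 counts. The part of these differences in the results below was not tested. Dis3 itself had 0, 12.8 and 21.5 CPM (lowest, median, highest) in Null, 30.4, 43.8 and 59.2 in Het and 18.1, 107 and 147 in WT, so Null and Het did not overlap, and the WT embryo at 18.1 (E2.5 WT replicate 6) lay among the Null values. Its reads include the exons that the allele keeps and any from Pibf1, which overlaps it on the other strand. The paper also names persistence of maternal Dis3 RNA and protein, and their part here was not tested.

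The RNA comparison asked whether genes with IgG-only promoter intervals differed between Null embryos, which carry no intact Dis3 allele, and Het embryos. Of the 1976 genes, 1247 were tested and 729 were not. With an adjusted p under 0.1 and a change beyond 2-fold by edgeR's quasi-likelihood test, 22 were higher in Null (1.76% of those tested) and 25 were lower (2%). The background over all genes was 3.67% higher and 2.06% lower, and over protein-coding genes 1.63% and 2.32%, so the shares lay near those of protein-coding genes. The genes with IgG-only intervals alone gave 12 and 11 of 432 (2.78% and 2.55%). The median log2 fold change was −0.12 over the members and 0.02 over all genes. In whole embryos, fewer cells of a type and less RNA per cell cannot be told apart.

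The split depended on scaling and on single libraries. Scaled to ERCC spike-ins, which moved the median of all genes to −1.08 on the log2 scale and that of the members to −1.15, 7 were higher and 445 lower, which is 0.5613% and 35.69% of the members tested, beside 0.5711% and 37.99% of protein-coding genes. With 1 embryo left out, the number higher lay between 9, without E2.75 Het replicate 4, and 28, without E2.75 Null replicate 2. It was also 10 to 14 without E2.75 Het replicate 1, 3 or 5, without E2.5 Null replicate 2 or 4, or without E2.75 Null replicate 1. The number lower lay between 15, without E2.5 Null replicate 4, and 39, without E2.75 Null replicate 2, and was 16 without E2.75 Het replicate 1. No share over all genes is given beside these leave-one-out counts, so they do not set the members apart. Without both shallow libraries, 21 were higher and 40 lower (1.61% and 3.067%, beside 1.679% and 3.357% of protein-coding genes). Stages were merged, and Null held more E2.5 than E2.75 embryos while Het held fewer, so genotype and stage were partly mixed. With stage as a term, 18 were higher and 20 lower (1.443% and 1.604%, beside 1.49% and 2.365% of protein-coding genes). Of the 47 called genes, 30 kept their call with stage as a term and 21 in E2.75 embryos alone. Of the same 47, 16 kept their call whichever embryo was left out, and 14 had no overlap between the 7 Null and the 7 Het embryos. None of these counts was made over all called genes, so none sets the members apart. Exons shared with a gene on the other strand were present in 19 of the 47, and counting ignored strand.

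Against WT, 33 members were higher in Null (2.65%) and 14 lower (1.12%), beside 3.66% and 1.59% of all genes and 1.67% and 1.73% of protein-coding genes. Under ERCC scaling the balance turned, to 16 higher (1.283%) and 35 lower (2.807%), beside 0.821% and 3.873% of protein-coding genes. With only the 2 genotypes compared the counts were 15 and 6 (1.375% and 0.55%, beside 1.276% and 1.148% of protein-coding genes). Among the 432 tested genes with IgG-only intervals alone, 19 were higher (4.4%) and 10 lower (2.31%). The comparison shares the Null embryos with that against Het, and it included a WT embryo with low Dis3, without which the counts were 28 and 15. Het against WT gave 0 members in either direction by edgeR, beside 0% of all genes, with 90 of 1247 (7.22%) at an unadjusted p under 0.05, where the genes of the other classes had 6.83% to 8.27%. DESeq2 gave 9 higher (0.4831%, beside 0.1749% of protein-coding genes). The difference between E2.5 and E2.75 in the Null to Het change had 0 members at an adjusted p under 0.1 by edgeR, beside 0 of all 13415 genes tested. At an unadjusted p under 0.05 there were 66 members (5.29%), and the share over all genes was not counted.

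Genes that were higher in Null embryos were led by ones nearly silent in Het. Mpig6b, which encodes an inhibitory receptor of megakaryocytes and platelets, had 2.14, 12.3 and 27.97 CPM (lowest, median, highest) in the 7 Null embryos, 0 in all 7 Het embryos and 0, 0 and 1.22 in the 9 WT embryos. Every Null embryo was thus above every Het and WT embryo. With 357 reads against 0, Null was at least 225-fold higher than Het, taking 3 counts over the group as the limit of 0 (adjusted p = 0.00182, edgeR). Its exons overlap those of Ly6g6c on the other strand. The IgG-only interval covered the TSS (chr17:35066161-35066274), 203 bp from an mCherry-control peak. Another promoter interval of Mpig6b (chr17:35065228-35065449) was supported in 1 replicate, with folds of 14.35 and 3.623.

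Cldn5, the tight junction gene of endothelium, had 0, 2.82 and 7.39 CPM in Null and 0 in all Het embryos, with 0, 0 and 3.01 in WT. The Null and Het embryos met only at 0, where 1 Null embryo lay. Null was at least 74.5-fold higher (adjusted p = 0.0159, edgeR), and the difference from WT did not pass (adjusted p = 0.359). Its interval lay inside the exon, 34658 bp from the nearest mCherry-control peak, which is among the farther ones.

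Gxylt2, a xylosyltransferase gene that modifies Notch, had 0.513, 8.84 and 40.2 CPM in Null and 0, 0 and 1.66 in Het (log2 fold change 5.02 ± 1.45 SE, adjusted p = 0.0482). The 2 groups overlapped, and the call was lost without E2.5 Null replicate 4 (adjusted p = 0.1225). Its difference from WT did not pass (log2 fold change 2.94, adjusted p = 0.2065, edgeR). Ttyh1, a membrane protein gene of neural cells, had 3.08, 7.07 and 22.7 in Null against 0, 0 and 1.51 in Het, with no overlap (4.43 ± 1.36, adjusted p = 0.0672), and its exons overlap 2 genes on the other strand. Its call was lost in 5 of 23 leave-one-out fits (highest adjusted p 0.134, without E2.75 Null replicate 1), and the difference from WT did not pass (1.82, adjusted p = 0.481). The Gxylt2 and Ttyh1 intervals each covered the TSS and were the gene's only promoter interval.

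The other 4 rises, like Gxylt2, had groups that overlapped. Nnat, an imprinted gene expressed from the paternal allele, had 0, 2.703 and 82.3 CPM in Null and 0, 0.860 and 1.51 in Het (4.39 ± 1.38, adjusted p = 0.0742). Without E2.75 Null replicate 1 its log2 fold change was 2.21 and the adjusted p 0.397, so that embryo set the value. Adgrb1, an adhesion receptor gene, had 0.940, 9.045 and 23.7 against 0, 0.301 and 1.88 (4.12 ± 1.32, adjusted p = 0.0806), and 9 of 23 leave-one-out fits lost it. Zfp316, a zinc finger gene, had 0.305, 9.23 and 45.8 against 0, 0.747 and 2.22 (3.89 ± 1.29, adjusted p = 0.0942) and was lost in 10 of 23. Fbxo36, an F-box gene, had 2.495, 20.45 and 29.8 against 0.777, 1.95 and 9.65 (2.43 ± 0.75, adjusted p = 0.0668) and was lost in 9 of 23. Of these genes, only Fbxo36 also had a supported promoter interval.

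Genes that were lower in Null embryos were led by Prss8 and Slc16a3. Prss8, which encodes the epithelial serine protease prostasin, had 0 CPM in all 7 Null embryos and 0.491, 4.75 and 14.9 in Het. Its WT embryos ranged from 0 to 7.76, with 5 of 9 at 0, so WT overlapped both. With 0 reads against 409, Null was at least 72.0-fold lower than Het (adjusted p = 0.0213, edgeR), and its exons overlap those of Kat8 on the other strand. Slc16a3, the lactate exporter MCT4, had a read in 1 Null embryo only, at 0.208 CPM, against 0.603, 2.83 and 10.2 in Het and 0, 0.799 and 4.23 in WT. All Het embryos lay above all Null embryos. The ratio of Null to Het was 0.0143 (95% exact counting interval 0.00172 to 0.0522, from 2 and 265 counts, adjusted p = 0.0110). Both genes had IgG-only intervals alone, Prss8 1 interval 5768 bp and Slc16a3 2 intervals 3057 and 2445 bp from an mCherry-control peak.

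Adgre5, the adhesion receptor CD97 gene, had 0, 0.170 and 2.08 CPM in Null and 0, 9.62 and 26.2 in Het (log2 fold change −4.44 ± 1.17, adjusted p = 0.0287). Abcc3, an exporter of organic anions, had 0.170, 1.41 and 14.45 in Null and 10.9, 25.3 and 31.0 in Het (−2.61 ± 0.72, adjusted p = 0.0379). Both kept their call in every leave-one-out fit although the groups overlapped, and Adgre5 overlaps exons of Ddx39 on the other strand. Both had a supported interval beside the IgG-only one, which for Abcc3 lay 187 bp from another TSS of the gene than the supported intervals.

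The other falls were less secure. Tstd3 had 0, 0 and 0.986 CPM in Null and 1.49, 2.11 and 8.35 in Het (−3.64 ± 1.23, adjusted p = 0.0992), with no overlap, but 18 of 23 leave-one-out fits lost the call and its exons overlap Ccnc and Usp45. Stard3, a cholesterol transfer gene of late endosomes, had 0, 2.56 and 9.18 against 8.44, 24.5 and 50.2 (−3.05 ± 0.91, adjusted p = 0.0568) and was lost without E2.5 Null replicate 4 or E2.75 Het replicate 4. Mgll, the monoacylglycerol lipase gene, had 0, 8.23 and 20.5 against 5.29, 69.9 and 116 (−2.83 ± 0.91, adjusted p = 0.0824) and was lost in 9 of 23. Hdac5, a class IIa histone deacetylase gene, had 0.831, 2.72 and 15.9 against 2.60, 26.2 and 46.4 (−2.56 ± 0.78, adjusted p = 0.0662) and was lost in 6 of 23. It was also lower than in WT (−2.69, adjusted p = 0.0441). Stard3, Mgll and Hdac5 each also had a supported promoter interval. That of Hdac5 was supported in both replicates, with folds of 23.38 and 8.563.

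**Figure D5:**
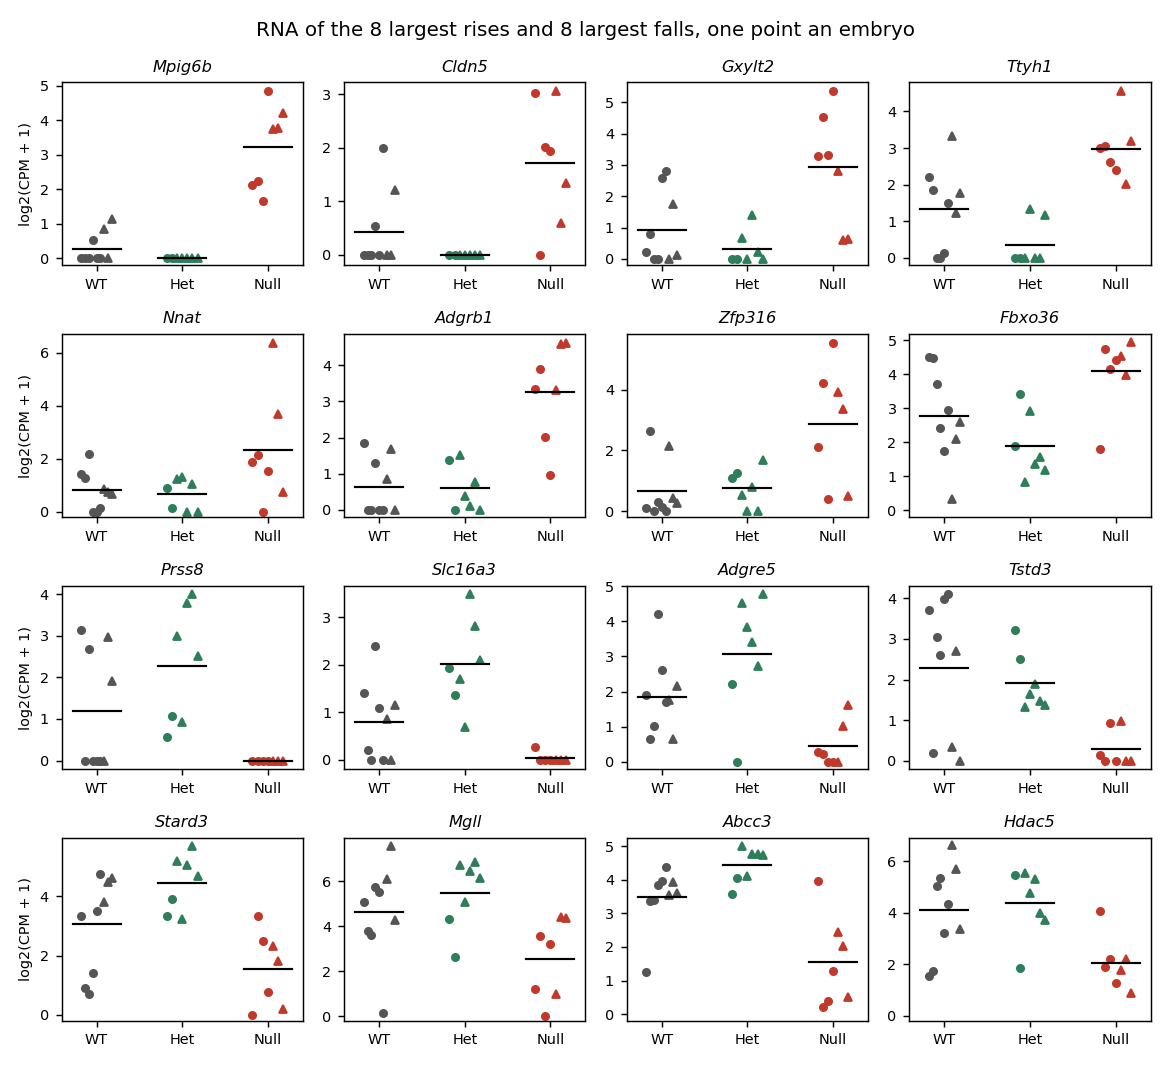
Levels of the 16 genes with the largest rises and falls in each embryo (y, log2 of CPM + 1) by genotype (colour), with circles for E2.5, triangles for E2.75 and a bar at the mean. Null embryos lie above all Het embryos for Mpig6b and Ttyh1 and below all Het embryos for Prss8, Slc16a3 and Tstd3.

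Some genes of smaller change varied less between embryos, and 4 of them are named here after their values were seen. Ash2l, a core subunit gene of the KMT2 histone methyltransferases, had 58.0, 117 and 139 CPM in Null, 191, 227 and 339 in Het and 127, 209 and 262 in WT. All Null embryos lay below all Het embryos (log2 fold change −1.20 ± 0.22, adjusted p = 0.00202), and the difference from WT was −0.83 (adjusted p = 0.0223). Its only promoter interval (chr8:25840625-25840928) covered the TSS with folds of 7.83 and 7.26, 6893 bp from an mCherry-control peak. Mocs3, a sulfur carrier activating enzyme gene, had 67.7, 87.2 and 119 CPM in Null and 23.4, 27.5 and 49.1 in Het (1.55, adjusted p = 0.00159). Mapt, the tau gene, had 39.2, 50.1 and 66.1 against 6.68, 12.7 and 27.7 (1.84, adjusted p = 0.00628). Dag1, the dystroglycan gene, had 8.31, 21.6 and 58.5 against 46.0, 109 and 151 (−1.98, adjusted p = 0.00775). All 4 were among the 16 that kept their call when any embryo was left out. Mocs3, Mapt and Dag1, unlike Ash2l, also had a supported promoter interval.

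Pluripotency and lineage regulators with IgG-only intervals did not pass the test. Pou5f1 had 706, 1006 and 1359 CPM in Null, 834.5, 1180 and 1299 in Het and 266.5, 862 and 1576 in WT (log2 fold change −0.12 ± 0.27, adjusted p = 0.870). Its reads can include those of Gm19553 on the other strand. Klf4 had a log2 fold change of −0.11, Prdm14 of 0.23, Sox2 of 0.09 and Fgf4 of −1.002, with adjusted p of 0.402 or more. Tfap2c had 0.25 (adjusted p = 0.6795), and Gata2, Elf5, Ets2, Tfap2a and Sox17 were too low to test. Cdkn1a, the p21 gene, was the exception among the p53 targets, with 273, 797 and 1036 CPM in Null against 123, 340 and 687 in Het (1.18, adjusted p = 0.0806), and its call was lost in 9 of 23 leave-one-out fits. Gtf3c5 and Cd9, the strong intervals without support beside them, had log2 fold changes of −0.42 and 0.53 (adjusted p = 0.581 and 0.190).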

How the data were processed

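Single-embryo RNA-seq of 23 embryos and ChIP-seq of mESCs were grouped by their labels. For the RNA, per the paper's methods, the authors used Cutadapt 3.4 for trimming, STAR 2.7.8a for alignment (GRCm38) and HTSeq 0.11.4 for unstranded counting. The authors deposited these raw counts of reads without normalization. For the ChIP-seq, the authors used Bowtie2 2.4.4 for alignment and Sambamba to retain unique hits, then called peaks per replicate with MACS2 2.2.7.1 against IgG and against mCherry. The deposited lists hold the fold enrichment over the control (a ratio), the −log10 of p and q values and a score per peak, which was not used.

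Replicate peaks were intersected with bedtools 2.31.1. TSSs came from GENCODE vM21 and sequence from RefSeq's GRCm38.p6. Gene-level tests used edgeR 4.0.16 under R 4.3.3 (TMM, its filter on low counts, quasi-likelihood, Benjamini-Hochberg over 13415 genes), with the 3 genotypes in 1 fit and stages merged, as the authors merged them, and and genes were called at an adjusted p below 0.1 when the change was larger than 1 on the log2 scale. Unaligned and unassigned summary lines and ERCC spike-ins were left out. Levels are CPM after TMM. Total counts ranged from 1690192 to 14015980 per library, and no depth of the peak lists is known. Bounds and intervals cover counting error only. The test scripts were tested on simulated data. The labels do not say whether embryos came from separate litters, so p-values measure the spread between these embryos.

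The members and gene lists were chosen with earlier results of these data known. Named were the 8 intervals with the highest and the 3 with the lowest value of the lower fold, the 8 largest rises and falls among called genes, list members by count with up to 4 examples, genes the study names and the intervals nearest the distance limit. Alternatives were DESeq2 1.42.0, other scalings, filters, fits and overlaps, and leaving out each embryo or replicate. The labels give 2 ChIP replicates where the methods speak of 3. Same-numbered embryos did not deviate together. Input samples were not analysed here. 1 interval that the naming rule selects is not reported here.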

Additional observations from a re-analysis of the deposited data

Results flagged for a closer look

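Among 147 groups of 7 or 9 embryos of 1 genotype in which a named gene was looked at, 11 (7.483%, in 8 libraries) held an embryo far from the rest. Chance gives about 1 in 20 in uniform groups. These groups merged E2.5 and E2.75, and the part of stage was not tested. In 3 genes E2.5 Null replicate 1 stood apart, with Fbxo36 low at 2.495 CPM (nearest other 14.87), Slc16a3 high at 0.2079 (all others at 0) and Hdac5 high at 15.91 (nearest 3.663). Among Het embryos, E2.5 Het replicate 2 was low for Gaa at 55.67 CPM (150.1) and for Snx1 at 86.19 (167.3), E2.5 Het replicate 1 was low for Dnmt3a at 58.11 (108.8), E2.75 Het replicate 3 was high for Dip2b at 75.57 (42.86) and E2.75 Het replicate 2 was high for Mocs3 at 49.13 (30.60). Among WT embryos, E2.5 WT replicate 1 was low for Abcc3 at 1.389 CPM (9.293), E2.5 WT replicate 4 was high for Mocs3 at 46.61 (25.56) and E2.5 WT replicate 3 was high for Wdr38 at 4.952 (1.597).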

How the results depend on the processing

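The 2172 intervals by 1976 genes became 644 by 639 at a reciprocal overlap of 50%, 1128 by 1026 with no mCherry-control peak within 500 bp and 289 by 308 with IgG peaks of −log10 q of at least 5. Without replicate 1 they were 10424 by 8497 and without replicate 2 13174 by 7420, so the class depends strongly on having both. The GC median was 65.25% at −log10 q of at least 5. The share of intervals holding a CCAAT box, 12.75% within the interval, was 17.96% about the replicate 1 summit, 17.99% at −log10 q of at least 5 and 14.36% with no mCherry-control peak within 500 bp. The median distance to a TSS was 252 bp from the midpoint. The median WT level on a log2 scale of CPM per kb was 0.60 with a pseudocount of 1, −1.16 with 0.1 and 1.86 over genes past the filter.

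Null over Het gave 22 members higher and 25 lower. The counts were 47 and 50 by DESeq2, 47 and 45 with no filter, 7 and 445 under ERCC scaling, 0 and 0 in E2.5 embryos alone, 12 and 11 for genes with IgG-only intervals alone, and, by a choice made after the data were seen, 12 and 16 without genes that share exons with the other strand and 40 lower without the 2 shallow libraries. Null over WT gave 33 and 14, with 58 and 29 by DESeq2, 110 and 40 with no filter, 16 and 35 under ERCC scaling, 15 and 6 with only the 2 genotypes compared, 8 and 3 in E2.5 embryos alone, 22 lower with stage as a term, 33 lower in E2.75 embryos alone, 19 higher for genes with IgG-only intervals alone, 14 higher without the 2 shallow libraries and 18 higher without genes that share exons. Of protein-coding genes, Null over WT called 2.42% higher and 2.251% lower by DESeq2 (members 3.113% and 1.557%), 5.585% and 3.103% with no filter (5.904% and 2.147%) and 0.821% and 3.873% under ERCC scaling (1.283% and 2.807%). Null over Het called 2.561% and 2.804% by DESeq2 (members 2.523% and 2.684%) and 2.392% and 2.629% with no filter (2.523% and 2.415%). In E2.5 embryos alone, where only 2 were Het, Null over Het called 0% and 0.01623% (members 0% and 0%). With only the 2 genotypes compared, Null over WT called 1.276% and 1.148% of protein-coding genes (members 1.375% and 0.55%). In E2.5 embryos alone it called 0.5517% and 0.5193% (0.5957% and 0.2234%). Lower genes were 2.4% with stage as a term (1.764%) and 2.749% in E2.75 embryos alone (2.459%). Higher genes were 0.9629% without the 2 shallow libraries (1.074%). Het over WT gave 9 higher by DESeq2. Leaving out 1 embryo gave 9 to 28 higher and 15 to 39 lower for Null over Het, 22 to 39 and 10 to 18 for Null over WT, and 0 to 1 and 0 for Het over WT. These leave-one-out counts have no share over all genes beside them. The sign of Paip1 reversed under ERCC scaling, to −0.13.

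With the replicate number as a replicate block, Null over Het gave 6 and 8 (0.4812% and 0.6415%, beside 0.6514% and 0.9816% of protein-coding genes). Null over WT gave 17 and 12 (1.363% and 0.9623%, beside 1.169% and 1.446%). The replicate numbers do not pair the embryos, since the correlations of same-numbered deviations ran from −0.106 to 0.0858. For these differences between settings, other than those with fewer samples or genes, the cause was not tested.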
